A study of Arabidopsis thaliana with 18 samples.

Results

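The miRNA families miR159 and miR319 (mir159 and mir319 in the deposited table) were described across 18 small RNA libraries of rosette leaves of Arabidopsis thaliana ecotype Col-0. All sequences that the deposited table lists under these family names were taken, which gave 13 sequences of miR159 and 18 of miR319, 31 of the 476 distinct sequences and 2 of the 101 families in the table. None of the 31 stands under another family, and every one lies within an annotated MIR159 or MIR319 hairpin. Plants were grown on soil at 22 °C with 8 h of light for about 5 to 6 weeks. One set received a spray of 1000000 spores per ml of Alternaria brassicicola strain MUCL 20297, a fungus that causes leaf spots, with 0.01% Silwet L 77, a wetting agent, and rosette leaves were taken 3 days later. The other plants were mock treated or untreated, and the labels do not say what the mock spray held or when these leaves were taken. Each treatment has 3 labelled replicates of AGO1-bound small RNA, immunoprecipitated with an antibody to ARGONAUTE1 (AGO1), and 3 of total small RNA, which makes 6 groups of 3 libraries. In these whole-leaf samples fewer cells with a miRNA and less of it per cell cannot be told apart. AGO1 and total libraries were prepared by different protocols, so that loading into AGO1 and protocol cannot be told apart. A fraction incubated without antibody is mentioned in the protocol and was not analysed here.

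Plant miRNAs are cut from hairpin precursors as a duplex of a guide strand and a passenger strand, called the star, and the guide is loaded into an ARGONAUTE protein that cleaves or represses matching mRNAs. AGO1 is the main carrier of miRNAs in leaves and is known to favour small RNAs that begin with U. miR159 and miR319 are related in sequence. miR159 restrains GAMYB-like transcription factors such as MYB33 and MYB65, whose release stunts leaf growth, and miR319 restrains TCP transcription factors such as TCP4, which stop cell division at the leaf margin, so that plants with excess miR319 have crinkled leaves. The precursors of both families are unusual in that they are cut from the loop end.

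AGO1 libraries held 10835770 to 20317660 miRNA reads and total libraries 753927 to 3034481, and miRNAs took 77.8% to 83.4% of genome-matched reads in AGO1 libraries and 2.53% to 13.2% in total libraries. The lowest value listed for a sequencing run is 15 reads, so up to 28 reads over the 2 runs of a library can stand behind a listing at 0. Levels are reads per 1000000 miRNA reads (CPM) scaled within AGO1 or within total libraries, so CPM of AGO1 and of total libraries are not on the same scale. Adjusted p-values come from limma over all families, or all sequences, tested in a comparison, with a threshold of 0.05.

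Selected sequences are printed 5′ to 3′ as the table gives them (T for U), with the seed, bases 2 to 8, in capitals. They were chosen to show what separates the loci of each family, the shift in the start of some miR319 forms and the 5p arm, and not by read number. Names give the locus, the arm of the hairpin, the length and, where it differs, the start relative to the annotated mature form.
miR159a-3p 21nt: tTTGGATTgaagggagctcta
miR159b-3p 21nt: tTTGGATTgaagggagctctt
miR159c-3p 21nt: tTTGGATTgaagggagctcct
miR319a/b-3p 21nt: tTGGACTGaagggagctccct
miR319b-3p 21nt start-1: cTTGGACTgaagggagctccc
miR319c-3p 21nt start-1: tTTGGACTgaagggagctcct
miR319c-3p 22nt: tTGGACTGaagggagctccttc
miR319b-5p 21nt: aGAGCTTTcttcggtccactc
miR319b-5p 20nt start+1: gAGCTTTCttcggtccactc
miR319a-5p 21nt: aGAGCTTCcttgagtccattc

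In coordinates of the RefSeq copy of TAIR10, the miR159 guides lie at chr1:27713234-27713254 on the minus strand (MIR159a, AT1G73687), chr1:6220813-6220833 on the plus strand (MIR159b, AT1G18075) and chr2:18994826-18994846 on the plus strand (MIR159c, AT2G46255). The annotated miR319 guide of 21 nt lies at chr4:12353109-12353129 on the plus strand in MIR319a (AT4G23713) and at chr5:16660469-16660489 on the minus strand in MIR319b (AT5G41663). Its reads cannot be assigned to either of these loci. The form that begins 1 base earlier, at chr5:16660470-16660490, matches MIR319b alone, and the miR319c form of 22 nt lies at chr2:17029870-17029891 on the plus strand (MIR319c, AT2G40805). It extends the annotated miR319c guide of 21 nt, at chr2:17029870-17029890, at the 3′ end. miR159a and miR159b differ by A21T, counted from the 5′ end, and miR159a and miR159c by T20C and A21T. The miR319b form with the earlier start has a C in front and, from its base 2 on, is identical to the first 20 bases of the miR319a/b guide. Read base by base from their 5′ ends, miR159a and the miR319a/b guide share 8 of 21 bases. The miR319b form with the earlier start is in the register of miR159 and shares 17 of 21 bases with miR159a.

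The 31 sequences fall into 11 seeds. The 7 sequences with seed TTGGATT hold 9796862 of the reads summed over all libraries and include the 21-nt miR159 guides of all 3 loci. The 6 sequences with seed TGGACTG, the annotated miR319 register, hold 68076 reads. The 4 sequences with seed TTGGACT, which start 1 base earlier, hold 37811 reads.

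The best ungapped pairing of these guides in the coding transcripts of 8 known targets lay within the coding sequence in every case. Sites are printed 5′ to 3′ on the mRNA, with bases that mismatch or form a G:U pair with the named guide in capitals. They show where each site departs from full pairing with the guide named beside it.
MYB33, miR159a-3p 21nt: tGgagctcccttcaTtccaaT
MYB101, miR159a-3p 21nt: tagagctTccttcaaAccaaa
TCP4, miR319a/b-3p 21nt: GAggGgTCcccttcagtccaG
TCP4, miR319b-3p 21nt start-1: AggGgTCcccttcagtccaGT

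The MYB33 site is in exon 3 at chr5:1839579-1839599 and had 2 mismatches and 1 G:U pair with miR159a, and MYB65 had the same numbers in its exon 3 at chr3:3604151-3604171. MYB101 had 1 mismatch and 1 G:U pair with miR159a at chr2:13783168-13783188. With the miR319a/b guide, MYB33 and MYB65 each had 3 mismatches and 0 G:U pairs, the same number of such positions as with miR159a. MYB101, a MYB gene known from pollen, had 5 mismatches and 1 G:U pair with the miR319a/b guide. In TCP2, TCP3, TCP4, TCP10 and TCP24, the miR319a/b guide paired without a mismatch or G:U pair across its bases 2 to 8. The TCP4 site in exon 2 at chr3:5063300-5063320 had 2 mismatches and 4 G:U pairs with this guide. With the miR319b form that starts 1 base earlier, the site had 3 mismatches and 3 G:U pairs, 1 of these 6 within bases 2 to 8. These matches describe letters and show no cleavage.

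The question of the comparison of AGO1-bound with total small RNA is how each family stands among the miRNAs that AGO1 carries. miR319 was scarcer relative to miR159 in AGO1-bound than in total small RNA, in all 3 treatments. The log2 ratio of miR319 to miR159 reads was -7.32, -7.40 and -7.09 in the AGO1 libraries of Alternaria plants, against -5.40, -4.51 and -5.63 in their total libraries. It was -7.15, -7.04 and -7.03 in AGO1 libraries of mock plants, against -4.44, -3.74 and -4.50 in total. In untreated plants it was -6.21, -6.89 and -6.83 in AGO1 libraries, against -4.57, -4.22 and -4.69 in total. Every AGO1 library lay below every total library. The mean difference was -2.36 on the log2 scale (exact two-sided permutation test within treatments, 8000 assignments, p = 0.00025, adjusted over 7 within-library values p = 0.000583), and a p of 0.00025 is the smallest these assignments can give. This ratio does not depend on how libraries are scaled.

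**Figure D1:**
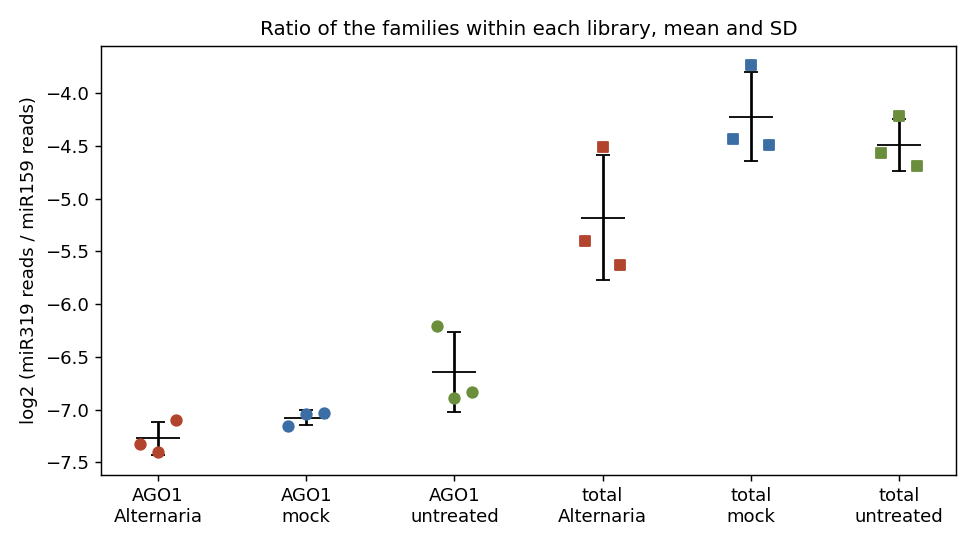
Log2 ratio of miR319 to miR159 reads (y axis) in each library, by library type and treatment (x axis), with circles for AGO1 libraries, squares for total libraries and bars for the mean and SD of 3. AGO1 libraries lie between -7.40 and -6.21 and total libraries between -5.63 and -3.74, with no overlap.

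As shares of pooled miRNA reads, miR159 took 5.84% in AGO1 and 8.17% in total libraries, and had rank 4 by mean CPM in both. miR319 took 0.0467% in AGO1 libraries and ranked 18 of 82 listed families, against 0.301% and 22 of 86 in total libraries. After scaling over the 18 libraries, miR319 was lower in AGO1 than in total libraries by the mean of treatments (log2 -1.54, SE 0.20, adjusted p = 2.05e-06), but higher when reads were scaled to genome-matched reads (1.1, adjusted p = 7.25e-05). By treatment, miR319 on that scale was called higher in untreated plants alone (limma, 2.53, adjusted p = 7.11e-07). It was not called in Alternaria (0.32, adjusted p = 0.501) or mock plants (0.45, adjusted p = 0.333). miR159 was higher in AGO1 (log2 0.82, SE 0.17, adjusted p = 0.000322), but lower with library totals alone (-0.32, adjusted p = 0.0914). Both families were thus called in this comparison, in which 85.3% of all families tested were called, and a direction for either family alone holds only for the scaling it was measured on. By treatment, miR159 had log2 changes of 0.48 in Alternaria plants (adjusted p = 0.159), 0.93 in mock plants (adjusted p = 0.0107) and 1.06 in untreated plants (adjusted p = 0.00466). miR319 had -1.61 (adjusted p = 0.00059), -1.92 (adjusted p = 0.000107) and -1.09 (adjusted p = 0.00966) in the same order. The shares of all families called were 67.4% in Alternaria, 68.4% in mock and 72.6% in untreated plants. The call for miR319 in untreated plants was lost without AGO1 untreated replicate 3 (log2 -0.65, adjusted p = 0.107). miR159 in Alternaria plants passed the test in 7 of the 18 fits that left out a library, those without AGO1 Alternaria replicate 2 (log2 0.95) or without any 1 of the 6 AGO1 libraries of mock and untreated plants (0.82 each). These 6 equal values are also the value of the only TMM reference library, of 18, that gave a call, so they are not 6 separate results.

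The authors' deposited table gives log2 ratios of AGO1 over total means for miR159 of 1.16 in Alternaria (adjusted p = 0.0125), 1.85 in mock (adjusted p = 0.0243) and 1.55 in untreated plants (adjusted p = 0.0221). For miR319 the authors' deposited table gives -0.964 in Alternaria (adjusted p = 0.107), -0.989 in mock (adjusted p = 0.0759) and -0.563 in untreated plants (adjusted p = 0.396).

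The make-up of miR319 differed between the library types more than that of miR159. In AGO1 libraries the miR319b form that begins with C, 1 base before the annotated start, was the most abundant miR319 sequence in 8 of 9 libraries, with 42.2% ± 5.51 (SD, n = 9) of the family's reads. In total libraries it held 11.5% ± 3.24 (SD, n = 9). Its share was 41.8%, 42.1% and 39.5% in AGO1 libraries of Alternaria plants, against 10.4%, 8.83% and 8.36% in total. It was 46.7%, 48.1% and 43.3% in AGO1 libraries of mock plants, against 12.7%, 16.6% and 8.31% in total. In untreated plants it was 45.9%, 43.0% and 29.3% in AGO1 libraries, against 9.88%, 11.4% and 16.6% in total. The groups do not overlap in any treatment, and AGO1 untreated replicate 3 is the lowest AGO1 library. The log2 ratio of this form to the miR319a/b guide averaged 0.48 ± 0.45 in AGO1 libraries and -1.81 ± 0.56 in total libraries (SD, n = 9 each), a difference of 2.28 (exact permutation test within treatments, p = 0.00025, adjusted over 4 values p = 0.001). This ratio was chosen after its values were seen.

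The miR319a/b guide of 21 nt, the main sequence of the family over all libraries, held 30.5% ± 5.67 of the family's reads in AGO1 libraries and 39.2% ± 6.04 in total libraries (SD, n = 9 each). Its share differed by -8.77 percentage points (exact permutation test, p = 0.00825, adjusted p = 0.0144), although the ranges overlap, with 25.2% to 43.3% in AGO1 and 26.8% to 46.8% in total libraries. The form 1 base shorter at its 3′ end held 15.5% ± 1.76 in AGO1 and 23.0% ± 2.57 in total libraries (SD, n = 9 each). Its log2 ratio to the 21-nt guide was -0.96 ± 0.35 in AGO1 and -0.76 ± 0.34 in total libraries, a difference within the spread (exact permutation test, p = 0.207). Sequences of 21 nt of any kind took 79.2% ± 2.25 of miR319 reads in AGO1 and 68.4% ± 4.56 in total libraries (SD, n = 9 each; difference 10.8 percentage points, exact permutation test, p = 0.00025, adjusted p = 0.000583).

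The star strand of miR319 was nearly missing from AGO1. The 6 sequences of the 5p arm held 0.945% ± 0.186 of miR319 reads in AGO1 libraries and 19.1% ± 5.94 in total libraries (SD, n = 9 each). The range was 0.556% to 1.17% in AGO1 libraries, against 9.81% to 28.1% in total libraries. The difference was -18.1 percentage points (exact permutation test, p = 0.00025, adjusted p = 0.000583). Because 5 of the 6 were not listed in any AGO1 library, the AGO1 share is a lower value, and it could be at most 5.08% in any AGO1 library if every unlisted sequence had held 28 reads. The miR319b-5p form of 21 nt was the only 5p sequence listed in AGO1 libraries. It had 68, 40 and 71 reads in AGO1 libraries of Alternaria plants, against 297, 850 and 471 reads in total libraries of these plants, which are shallower. Its log2 change in AGO1 over total was -4.72 (SE 0.28, adjusted p = 2.61e-10). The shifted miR319b-5p form of 20 nt was listed in every total library, with 62 to 414 reads, and in no AGO1 library. On the 18-library scale its mean in total libraries, 107.5 CPM (lowest library 43.5), was at least 30.9-fold above the AGO1 limit of 3.48 CPM. For the miR319a-5p form of 21 nt the mean of 39.5 CPM (lowest library 18.2) was at least 11.4-fold above the same limit, which takes 28 reads per library as the floor. These folds hold for the means on this scale and were not computed on others. The only listed star of the miR159 family, from MIR159b, was listed in 2 total libraries, with at most 0.0235% of miR159 reads. Where it was not listed it could have held up to 0.0765% in a total library and up to 0.0049% in an AGO1 library. Only reads that match plant miRBase entries are listed, and no 5p sequence of MIR159a or MIR159c is among them. These values therefore cover the MIR159b star alone, and the star shares of the 2 families cannot be compared.

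**Figure D2:**
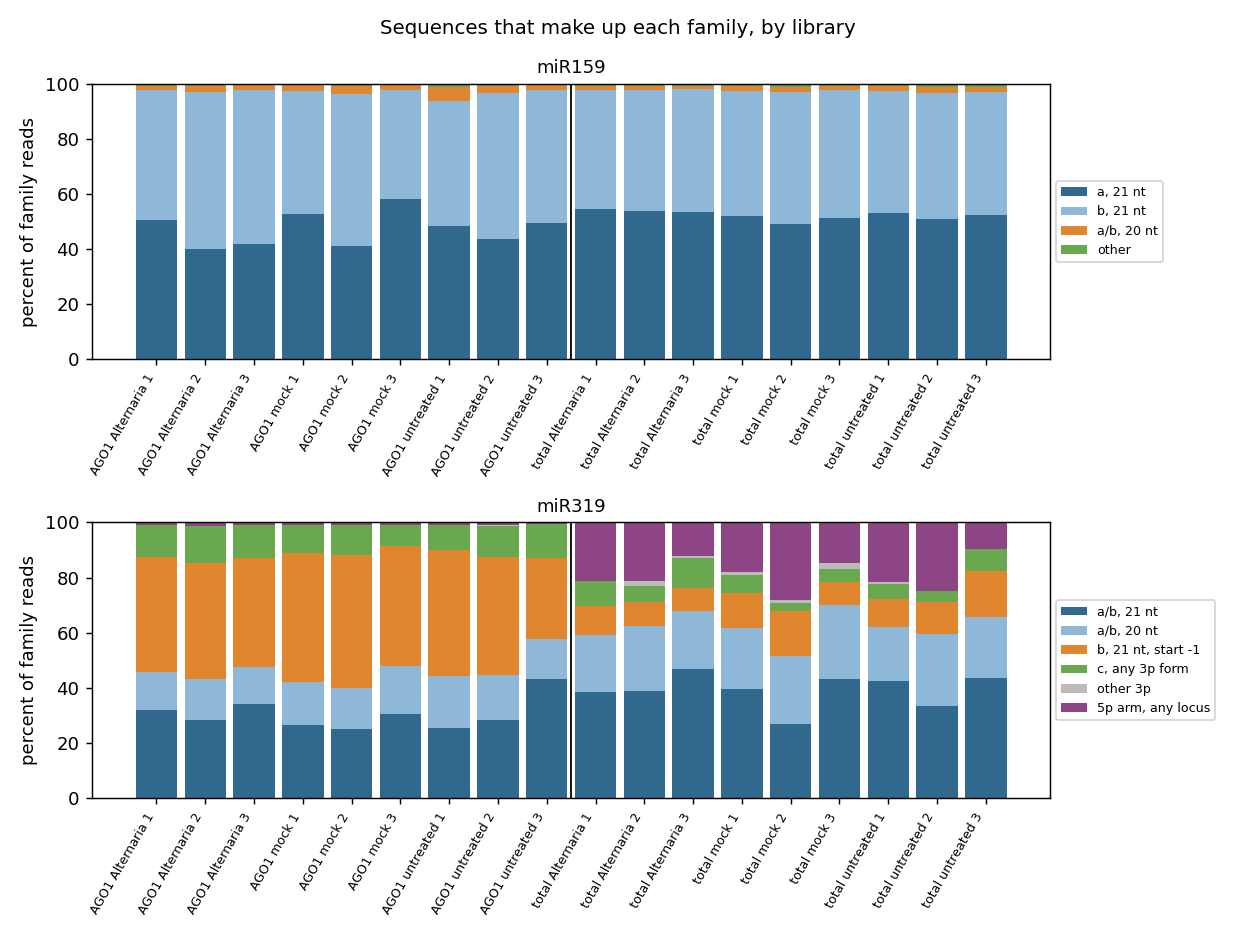
Percent of family reads (y axis) by sequence class in each of the 18 libraries (x axis), miR159 above and miR319 below, with AGO1 libraries left of the line and total libraries right of it. In miR319 the form with the earlier start (orange) holds 29.3% to 48.1% in AGO1 and 8.31% to 16.6% in total libraries, and the 5p arm (purple) 0.556% to 1.17% and 9.81% to 28.1%.

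The 22-nt form of MIR319c held 5.29% ± 1.13 of miR319 reads in AGO1 and 0.880% ± 0.549 in total libraries (SD, n = 9 each). It was the only miR319 sequence that was called higher in AGO1 (log2 1.49, SE 0.42, adjusted p = 0.00459), a call that library totals alone did not give (0.43, adjusted p = 0.425). By treatment its log2 change was 0.76 in Alternaria (adjusted p = 0.368), 2.55 in mock (adjusted p = 0.00629) and 1.16 in untreated plants (adjusted p = 0.173), so that mock plants alone passed, and total mock replicate 2 is the library in which it was listed at 0. The miR319c form of 21 nt that begins with T 1 base earlier held 3.42% ± 1.31 in AGO1 and 3.77% ± 1.69 in total libraries (SD, n = 9 each), with a log2 change of -1.59 (SE 0.28, adjusted p = 8.45e-05). This form starts in the same register as the miR319b form above, which had a log2 change of 0.38 (SE 0.26, adjusted p = 0.179). The miR319c form changed direction with genome-matched reads (0.84). The miR319b form was called lower in AGO1 with library totals alone (-0.76) and higher with unweighted TMM factors (1.00), median-of-ratios factors (1.204), genome-matched reads (2.94) and another TMM reference library (0.64). It was also called higher in 5 of the 18 fits that left out a library, up to 0.81 without AGO1 untreated replicate 3, so its place among the sequences higher in AGO1 depends on the scaling.

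miR159 had the same lead sequences in both library types, miR159a and miR159b at nearly equal level. miR159a held 47.3% ± 6.08 of miR159 reads in AGO1 and 52.3% ± 1.73 in total libraries (SD, n = 9 each), a difference of -5.0 percentage points that did not pass (exact permutation test, p = 0.0473, adjusted p = 0.0662), but did without AGO1 mock replicate 3 (-6.36 points, adjusted p = 0.00525) or AGO1 mock replicate 1 (-5.67 points, adjusted p = 0.0473). miR159b held 49.5% ± 6.00 in AGO1 and 45.1% ± 1.41 in total libraries. In total libraries miR159a exceeded miR159b in every library, with log2 ratios of miR159b to miR159a from -0.35 to -0.04. In AGO1 libraries the ratio spread on both sides of 0, from -0.56 in mock replicate 3 to 0.50 in Alternaria replicate 2, and miR159b was ahead in 4 of the 9. The mean ratio was 0.07 ± 0.36 in AGO1 and -0.21 ± 0.09 in total libraries (SD, n = 9 each; exact permutation test, p = 0.054, adjusted over 4 values p = 0.108). Among the treatments of total libraries the ratio was -0.35, -0.30 and -0.25 in Alternaria and -0.20, -0.04 and -0.15 in mock plants, without overlap (exact permutation test, p = 0.1, the smallest that 3 against 3 can give). Untreated plants, with -0.26, -0.16 and -0.23, overlap both (exact permutation test, p = 0.2 for Alternaria against untreated). The ratio was not among the 7 within-library values adjusted together. In AGO1 libraries it was -0.10, 0.50 and 0.42 in Alternaria, against -0.23, 0.43 and -0.56 in mock plants, which overlap.

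The 21-nt share of miR159 was 96.9% ± 1.32 in AGO1 and 97.4% ± 0.522 in total libraries (SD, n = 9 each), a difference of -0.57 percentage points within the spread (exact permutation test, p = 0.22). Shorter forms with the same start took 3.05% ± 1.32 in AGO1 and 2.40% ± 0.545 in total libraries (exact permutation test, p = 0.141). The highest share, 6.31%, was in AGO1 untreated replicate 1. miR159c was rare: its 20-nt form held 0.047% ± 0.0124 of miR159 reads in AGO1 and 0.264% ± 0.0496 in total libraries (SD, n = 9 each). It was the only miR159 sequence called lower in AGO1 (log2 -1.66, SE 0.19, adjusted p = 9.08e-07), but was higher with genome-matched reads (0.88). The annotated miR159c guide of 21 nt was not called (limma, log2 0.11, SE 0.58, adjusted p = 0.862), and was listed at 0 in total untreated replicate 2.

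Of the 31 sequences, 22 passed the filter on low counts for AGO1 against total, 9 of miR159 and 13 of miR319. A sequence high in either library type alone could pass. Among the 9 tested miR159 sequences 5 were called higher in AGO1 and 1 lower (median log2 change 0.67), and among the 13 of miR319 1 was called higher and 10 lower. Of these 10, 6 were listed in no AGO1 library. These 6 passed the filter through total libraries alone and could only come out lower, so no result is drawn from the count of 10. Their fitted changes depend on the pseudocount of 1 CPM, and no median is given. Over all 379 sequences tested, 37.7% were called higher, 47.8% lower and 85.5% in either direction, with a median of -0.76. The called higher miR159 sequences were miR159a and miR159b of 21 nt (log2 0.67 and 0.95) and the shared forms of 18, 19 and 20 nt (1.67, 0.84 and 1.27). With library totals alone the values for miR159a (-0.47), miR159b (-0.19) and the 19-nt form (-0.29) turned negative. The called lower miR319 sequences were all tested 5p forms, the miR319a/b guide of 21 nt (-1.90), its 20-nt form (-2.10), the miR319c form of 21 nt with the earlier start (-1.59) and 2 forms of miR319a/b that start 1 base later. These 2 forms, of 19 and 20 nt, were listed in 6 and 4 of the 9 total libraries and in no AGO1 library, so no fold is given for them. The call for the one of 20 nt was lost in 13 of 18 fits that left out a library. With genome-matched reads the miR319a/b guide (0.73) and its 20-nt form (0.52) turned positive.

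**Figure D3:**
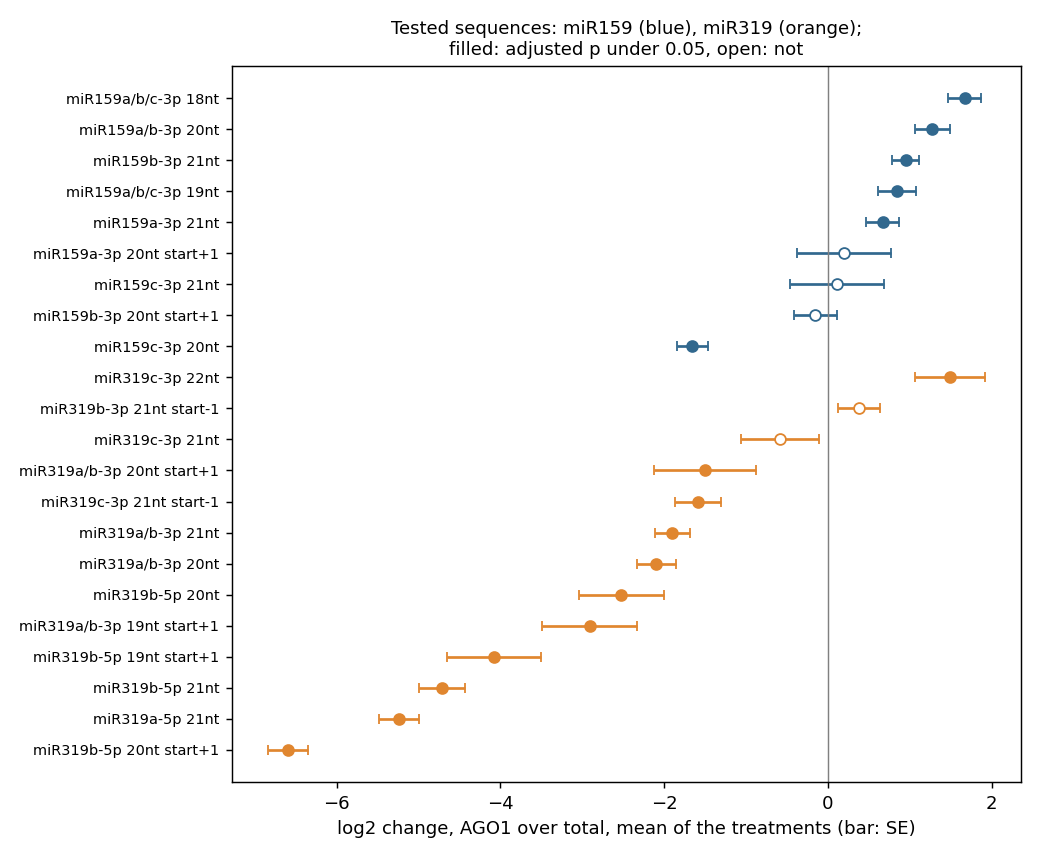
Log2 change in AGO1 over total libraries, mean of the treatments (x axis, bars for the SE), for each tested sequence (rows), with miR159 in blue and miR319 in orange and filled points for adjusted p under 0.05. The lowest points are 5p forms of miR319, down to a fitted -6.59 for one listed in no AGO1 library. A miR319a/b 3p form of 19 nt (fitted -2.91) lies below the miR319b-5p form of 20 nt (fitted -2.52), and neither is listed in an AGO1 library. Sequences listed in no AGO1 library could only lie on the lower side. The miR319c form of 22 nt lies at 1.49 and the miR319b form with the earlier start at 0.38.

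The comparison of Alternaria with mock plants asks whether the families changed with the infection, and neither did by this test in total or in AGO1-bound small RNA. In total libraries miR159 had 82945, 75632 and 119304 CPM in Alternaria, against 68154, 51142 and 76168 CPM in mock and 77130, 50651 and 65709 CPM in untreated plants. Alternaria replicate 3 is the highest, and Alternaria and mock libraries overlap. Its log2 changes were 0.50 in Alternaria against mock (SE 0.26, adjusted p = 0.320), 0.51 in Alternaria against untreated (adjusted p = 0.135) and 0.02 in mock against untreated plants (adjusted p = 0.951). The first of these values ranged from 0.18 to 0.50 over the 9 choices of TMM reference library. The medians of all tested families in these comparisons were 0.31, 0.35 and 0.21.

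miR319 had 1960, 3320 and 2404 CPM in total libraries of Alternaria plants, against 3139, 3829 and 3377 CPM in mock and 3241, 2720 and 2544 CPM in untreated plants. Alternaria replicate 2 lies among the mock libraries. The log2 changes were -0.46 in Alternaria against mock (SE 0.26, adjusted p = 0.351; -0.78 to -0.46 over the reference libraries), -0.17 in Alternaria against untreated (adjusted p = 0.585) and 0.29 in mock against untreated plants (adjusted p = 0.574). The shares of all families called in these total comparisons were 6.49%, 24.7% and 5.19% in that order. In both comparisons with untreated plants total libraries differed in the share of miRNAs among genome-matched reads, 7.76% to 11.7% in Alternaria, 5.33% to 13.2% in mock and 2.53% to 2.76% in untreated plants. Scaled to genome-matched reads both families were called higher than in untreated plants, miR159 by 2.29 in Alternaria (adjusted p = 4.58e-06) and 1.63 in mock (adjusted p = 0.00172), and miR319 by 1.59 in Alternaria (adjusted p = 0.0068) and 1.89 in mock (adjusted p = 0.00245).

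In AGO1 libraries miR159 had 56612, 53350 and 63875 CPM in Alternaria, against 46850, 51256 and 81278 CPM in mock and 51285, 72045 and 50079 CPM in untreated plants. The groups overlap, and the log2 changes were -0.01, 0.02 and 0.03 in Alternaria against mock, Alternaria against untreated and mock against untreated plants (adjusted p = 0.991, 0.961 and 0.981). miR319 had 354, 316 and 468 CPM in Alternaria, against 329, 389 and 622 CPM in mock and 695, 608 and 440 CPM in untreated plants. Its log2 change was -0.20 in Alternaria against mock (SE 0.30, adjusted p = 0.837; -0.53 to -0.20 over the reference libraries) and -0.41 in mock against untreated plants (adjusted p = 0.706). Against untreated plants it was -0.61 in Alternaria plants (SE 0.30, unadjusted p = 0.051, adjusted p = 0.183), with 1 untreated library inside the Alternaria range. The shares of all families called were 5.06% in Alternaria against mock, 8.86% in Alternaria against untreated and 0% in mock against untreated plants, where limma gave 5 of 79 families at an unadjusted p under 0.05.

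**Figure D4:**
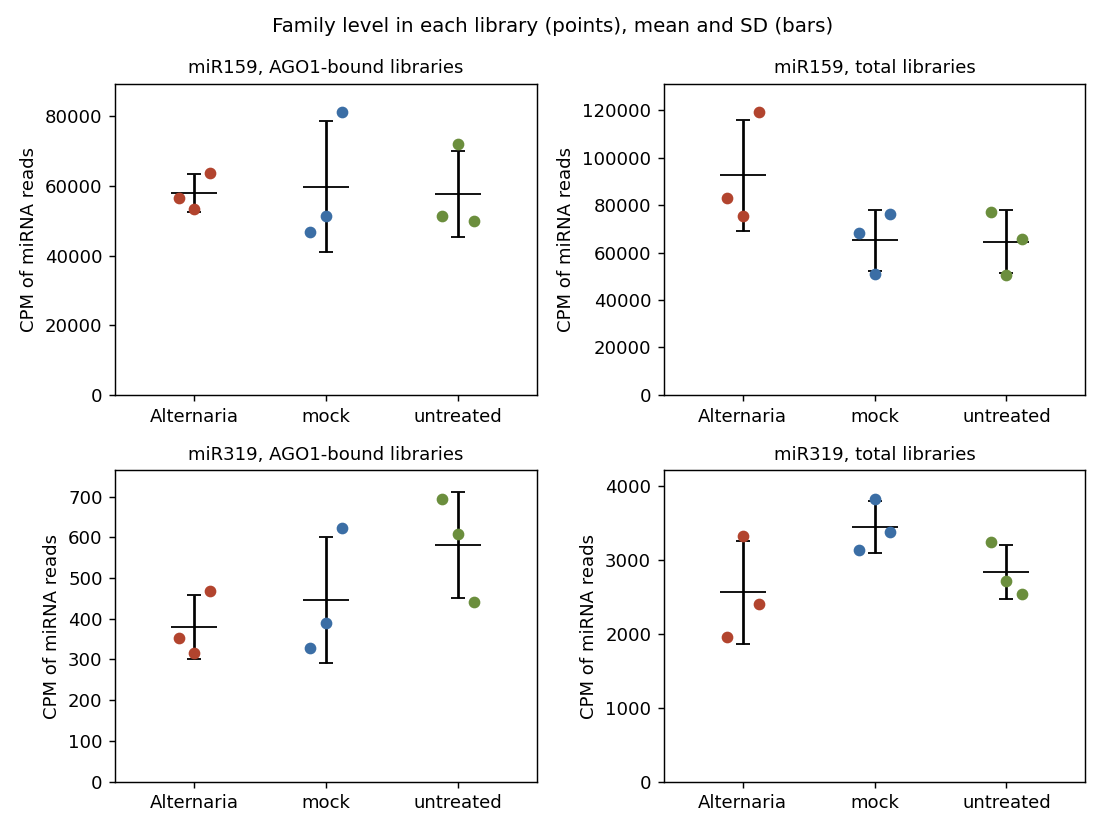
CPM of miRNA reads (y axis, each panel from 0) of miR159 (upper panels) and miR319 (lower panels) in AGO1 (left) and total (right) libraries, by treatment (x axis), with points for libraries and bars for the mean and SD of 3. Alternaria and mock libraries overlap in all 4 panels, with the highest miR159 value in total Alternaria replicate 3 at 119304 CPM.

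An interaction term tested if the Alternaria effect was unequal in the 2 library types. It was -0.45 for miR159 (SE 0.42, adjusted p = 0.859) and 0.31 for miR319 (SE 0.49, adjusted p = 0.906), and 0% of 95 families were called, while 7 had an unadjusted p under 0.05. Of the tested member sequences none was called, against 1.58% of all sequences. The log2 ratio of miR319 to miR159 averaged -5.18 ± 0.59 in Alternaria and -4.23 ± 0.42 in mock plants in total libraries (SD, n = 3 each). The closest libraries were at -4.51 in Alternaria and -4.50 in mock plants, and the difference was -0.96 at the smallest p that 3 against 3 allows (exact permutation test, p = 0.1). In AGO1 libraries it averaged -7.27 ± 0.16 in Alternaria and -7.08 ± 0.07 in mock plants, a difference of -0.20 (exact permutation test, p = 0.2).

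In the authors' deposited table the log2 ratio of Alternaria over mock means in total libraries is 0.404 for miR159 (adjusted p = 0.802) and -0.51 for miR319 (adjusted p = 0.793). Over untreated means the authors' deposited table gives 0.443 for miR159 (adjusted p = 0.661) and -0.185 for miR319 (adjusted p = 0.839) in Alternaria plants. For mock over untreated means in total libraries the authors' deposited table gives -0.0235 for miR159 (adjusted p = 1) and -0.306 for miR319 (adjusted p = 0.959), both opposite in sign to the log2 changes of 0.02 and 0.29 above. For mock over untreated means in AGO1 libraries the authors' deposited table gives 0.145 for miR159 and -0.293 for miR319, with adjusted p-values of 1.

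Among single sequences, 1 was called in a comparison of treatments. The miR319c form of 22 nt had 16.8, 17.7 and 18.6 CPM in AGO1 libraries of Alternaria plants, against 16.4, 22.8 and 21.02 CPM in mock and 45.1, 34.9 and 30.1 CPM in untreated plants. The Alternaria libraries all lay below the untreated ones. It was lower in Alternaria than in untreated plants by -0.99 on the log2 scale (SE 0.28, adjusted p = 0.0457), where 4.87% of all sequences were called, and this call was lost in 8 of the 9 fits that left out a library (adjusted p up to 0.21). In the fit that kept it, without AGO1 untreated replicate 3, it was among 5 member sequences called. The other 6 miR319 sequences tested in AGO1 libraries had log2 changes from -0.83 to 0.55 in this comparison. In total libraries the same form had 10.8, 29.1 and 34.04 CPM in Alternaria, against 30.3, 45.7 and 36.1 CPM in untreated plants, which overlap (log2 -0.71, SE 1.25, adjusted p = 0.734). The annotated miR319c guide of 21 nt, listed in 8 of the 9 total libraries, went the other way there by its listed values. It had 78.02, 52.5 and 85.1 CPM in Alternaria, against 42.02, 20.8 and 0 CPM in untreated plants. The listing at 0 is total untreated replicate 3, where up to 28 reads could stand behind it. This guide averaged 71.9 CPM in Alternaria and 20.9 CPM in untreated plants. It was not called (limma, log2 2.87, SE 1.12, unadjusted p = 0.0228, adjusted p = 0.0899). The size of this change depends on that listing at 0 and on the pseudocount of 1 CPM, so no fold is drawn from it.

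No member sequence was called in Alternaria against mock in total libraries (1.35% of all sequences), nor in AGO1 libraries (4.12%), nor in Alternaria against untreated in total libraries (21.3%). None was called in mock against untreated plants in total or AGO1 libraries, where limma called 0% of all sequences, with 43 of 296 and 18 of 267 at an unadjusted p under 0.05. Of the 22 member sequences tested in total libraries, 1 had an unadjusted p under 0.05 in Alternaria against mock, the miR319b form with the earlier start (log2 -0.85, SE 0.34, adjusted p = 0.212). It had 204, 293 and 201 CPM in Alternaria, against 400, 634 and 281 CPM in mock plants, which overlap.

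The families whose level across libraries was most like that of each member were found by Pearson's r of log2(CPM + 1). This is a description over 9 libraries that differ in depth and treatment. The nearest were picked from 76 families in total and 78 in AGO1 libraries. In AGO1 libraries miR159 was nearest to miR843 (r = 0.79), miR5652 (0.61) and miR319 (0.57), and miR319 to miR843 (0.85), miR840 (0.71) and miR164 (0.68). In total libraries miR159 was nearest to miR5996 (0.92), miR5640 (0.84) and miR848 (0.82). There miR319 was nearest to miR394 and miR384 (0.82 each), which hold the same sequences, and to miR398 (0.76). Between miR159 and miR319 r was 0.57 in AGO1 and -0.44 in total libraries.

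Of 11 families known to regulate leaf development, all were tested. In total libraries 1 was called in Alternaria against untreated plants, miR172, a regulator of AP2-like factors (log2 1.15, SE 0.29, adjusted p = 0.00951), where 24.7% of all families were called. In AGO1 libraries 1 was called in Alternaria against untreated plants, miR164, a regulator of CUC genes at organ boundaries (log2 -1.26, SE 0.30, adjusted p = 0.0067), where 8.86% of all families were called. None was called in the other 4 treatment comparisons. The list's median in total Alternaria against mock plants was 0.02, against 0.31 over all families, and in AGO1 libraries -0.0036, the same value as over all families. In AGO1 against total libraries 4 were called higher and 6 lower, where 85.3% of all families were called, and the list median was -4.05, against -0.04 over all families. miR166 and miR165, which target HD-ZIP III factors, had 2.99 and 2.27, and miR164 -9.75. Of the other regulators of MYB genes, miR828 was not tested. miR858 passed the filter on low counts in AGO1 libraries and jointly over the 18, but not in total libraries. A family high in AGO1 alone could pass the joint filter, so no direction is drawn from its log2 change of 1.68 in AGO1 over total. In AGO1 libraries its log2 change was 0.14 in Alternaria against mock plants (adjusted p = 0.976).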

How the data were processed

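Small RNA reads of 18 libraries were matched by the authors to plant miRBase entries in miRProf, at 0 mismatches and with organisms and variants combined, per the file headers. Trimming used cutadapt after FastQC, with genome build TAIR10, per the submitters' processing notes. The deposited table gives whole read numbers per sequence and run among family-name lines, so it was not recorded as a plain count table. In the authors' deposited comparison tables (DESeq 1.2, with DESeq2 also named, per the submitters' processing notes), group means are a normalized signal, with their ratio (fold), its log2 and a p-value with its adjusted value; they entered no test.

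Runs of a library were summed and scaled to CPM by trimmed mean of M-values (TMM) factors (trims 0.3 and 0.05) from families with 10 counts at the median depth in as many libraries as the smallest group and at least 15 in all. The version of these factors was settled after several had been run and member values seen, because the factors moved with the reference library; the others are alternatives here. limma 3.58.1 (R 4.3.3; trend, robust) tested log2(CPM + 1) with Benjamini-Hochberg adjustment over all families or sequences, with AGO1 and total libraries fitted apart (9 each) for treatments and together (18) for AGO1 against total and the interaction, 11 comparisons in all. Shares and ratios within a library were compared by exact permutation tests. The limma p-values rest on the spread between replicates, pooled over the groups of a fit and drawn towards that of other features. Permutation p-values come from exchanging library labels. Limits from unlisted values cover counting only.

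Sequences were matched to the RefSeq copy of the Arabidopsis genome, where 461 of 476 had the number of matches given in the deposited table. Named sequences were, per family, the main sequence by mean CPM, the next 3 in total and in AGO1 libraries, and every member sequence past the threshold. The members, lists and rules were chosen with earlier results of these data known. Alternatives were other scalings, no filter, a pseudocount of 10 CPM, limma-voom, the replicate number as a block, each library left out, the deeper run alone and shared sequences left out. Python 3.11.15, pandas 2.3.3, numpy 2.4.6 and matplotlib were used.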

Additional observations from a re-analysis of the deposited data

How the results depend on the processing

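Scaling decides the AGO1 against total direction of each family alone. With library totals alone miR159 had -0.32 (mean of treatments), -0.67 (Alternaria), -0.036 (mock) and -0.25 (untreated), and with genome-matched reads miR319 had 1.1, 0.32, 0.45 and 2.53 in the same order. The calls for miR319 were lost with median-of-ratios factors in Alternaria (-0.53) and untreated plants (-0.60) and with unweighted TMM in untreated plants (-0.66). miR159 in Alternaria plants was called with median-of-ratios factors (1.56), genome-matched reads (2.41), shared sequences left out (0.77), unweighted TMM (1.21) and the reference library with the highest value (0.82), and miR159 in untreated plants was not called with the one with the lowest value (0.65). Genome-matched reads gave 2.29 and 1.63 for miR159 and 1.59 and 1.89 for miR319 in total Alternaria and mock against untreated plants, and -0.13 for the miR319 interaction, for which the lowest reference gave -0.083. Values near 0 changed sign: miR159 in total mock against untreated plants (-0.057 with shared sequences left out, -0.12 with the lowest reference), in AGO1 Alternaria against untreated (-0.24 with all 18 libraries together, -0.044 with shared sequences left out, -0.20 with the lowest reference) and in AGO1 mock against untreated (-0.055 with all 18 together). Neither family was called in Alternaria against mock under any alternative. The versions of TMM and the choice of reference library were added after seeing the data. The cause of these shifts was not tested. With library totals alone 4 sequences turned in AGO1 against total, miR159a (-0.47), miR159b (-0.19), the shared 19-nt form (-0.29) and the miR319b form with the earlier start (-0.76), and with genome-matched reads miR159c of 20 nt (0.88), the miR319a/b guide (0.73), its 20-nt form (0.52) and the miR319c form with the earlier start (0.84).

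The number of member sequences called in AGO1 Alternaria against untreated plants, 1 here, was 0 with median-of-ratios factors, library totals alone, genome-matched reads, no filter, limma-voom, unweighted TMM and the highest reference, and 0 to 5 when a library was left out. In total libraries genome-matched reads gave 18 in Alternaria and 17 in mock against untreated plants, beside 194 and 151 of all 296 sequences higher and 9 and 2 lower, and a pseudocount of 10 CPM gave 1 in Alternaria. In AGO1 against total of untreated plants library totals alone gave 8, against 13. Leaving out a library gave 8 to 15 in AGO1 against total of Alternaria plants (8 without total Alternaria replicate 2), 0 to 1 in total Alternaria against untreated (1 without total untreated replicate 1) and 0 to 1 in the interaction (1 without total Alternaria replicate 1).

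With each library left out in turn, miR159 ranged from 0.24 to 0.63 and miR319 from -0.72 to -0.28 in total Alternaria against mock plants. miR159 ranged from -0.00098 to 0.65 in total Alternaria against untreated, -0.24 to 0.18 in total mock against untreated, -0.32 to 0.13 in AGO1 Alternaria against mock, -0.16 to 0.26 in AGO1 Alternaria against untreated, -0.15 to 0.40 in AGO1 mock against untreated and 0.37 to 0.95 in AGO1 against total of Alternaria plants. miR319 ranged from -0.55 to 0.0028 in total Alternaria against untreated, -0.60 to 0.0055 in AGO1 mock against untreated and -1.24 to -0.65 in AGO1 against total of untreated plants. The share of miR159a ranged from -6.36 to -4.12 points. Differences in the ratio of the families (-2.49 to -2.25) and in the star share of miR319 (-19.3 to -17.0 points) kept their call in all 18 such fits.

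The replicate number was not used to pair the samples in the main fits. In none of 15 pairs of groups did all 3 same-numbered pairs correlate over 0.1 in their deviations from the group means. These correlations ran from -0.25 to 0.36, and with 3 libraries per group such a cut cannot exclude a pairing. With the replicate block, miR159 had 0.50 and miR319 -0.46 in total Alternaria against mock plants, and no call of either family changed. Over all families the block gave 1 higher and 1 lower in total Alternaria against mock, against 3 and 2 without it, 6 and 1 in AGO1 Alternaria against mock, against 4 and 0, and 6 and 5 in AGO1 Alternaria against untreated plants, against 6 and 1. Depth limits total libraries, in which a sequence with under 28 reads may be unlisted.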
